A study of Mus musculus with 3 samples.

Results

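Mature miRNAs of mouse TAG1 ES cells were compared between cells in which Activin/Nodal-type signalling had been blocked with the inhibitor SB and untreated cells. The comparison took every miRNA that the files list, 693 of 693, and used 2 of the 3 libraries of the study, 1 for each condition. TAG1 is a single mouse ES cell line derived from J1 that carries a Dox-inducible, constitutively active Alk4 receptor (Alk4*), and this transgene was present but not induced in both conditions compared. The Control library (0 hr) was made from cells that received no compound and grew in medium containing FBS. The SB library (16 hrs SB) was made from cells exposed over 16 hrs to 30 µM of the compound, which the labels spell SB-431541 and the methods of the study SB-431542, in medium with KSR, a defined serum replacement, in place of FBS. Both media held LIF, the cytokine that keeps mouse ES cells undifferentiated. A further library (Dox) was made from cells that received 12 hrs of Dox after the SB treatment, also in medium with KSR and not FBS. The values of the Dox library are set beside the others only for a few miRNAs. Because the inhibitor and the change from FBS to KSR came together, effects of SB, of the medium and of the time in culture cannot be told apart.

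SB blocks the kinase activity of the type I receptors Alk4, Alk5 and Alk7, so Smad2 and Smad3 are no longer phosphorylated and the genes they activate lose that input. A miRNA is cut from a hairpin precursor, and each hairpin can give a mature miRNA from its 5p arm and from its 3p arm. Bases 2 to 8 of the mature miRNA, the seed, carry most of its pairing with target mRNAs, and miRNAs with the same seed form a family. In mouse ES cells the miR-290-295 cluster is the dominant source of miRNAs and its 3p arms with the seed AAGUGCU promote the passage from G1 to S phase, whereas the let-7 family is held down by Lin28 until cells differentiate.

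The sequences below are those of selected miRNAs that the results describe, grouped by the direction of the difference or by family or locus. Not all of them were called lower or higher. They are RefSeq mature sequences on GRCm38.p6, written 5′ to 3′ with the seed in capitals.

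The first group had lower levels in the SB library. miR-485-3p (chr12:109734946-109734967, plus strand, in an exon of the noncoding gene Mirg) and miR-543-3p (chr12:109717304-109717325, plus strand) come from the imprinted domain on chromosome 12. miR-92a-2-5p (chrX:52741892-52741913, minus strand) is an arm of the miR-106a-363 cluster. miR-423-5p (chr11:77078122-77078144, minus strand) lies in an intron of Nsrp1, and miR-210-3p (chr7:141221407-141221428, minus strand) lies in no annotated host gene on its strand.
miR-485-3p: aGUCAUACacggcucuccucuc
miR-543-3p: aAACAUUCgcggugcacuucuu
miR-92a-2-5p: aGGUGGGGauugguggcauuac
miR-423-5p: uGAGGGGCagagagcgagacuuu
miR-210-3p: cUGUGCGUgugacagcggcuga

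The miR-181 family shares 1 seed, but its members come from different loci and their levels went in opposite directions. miR-181c and miR-181d lie beside each other in an intron of Nanos3 (chr8:84178759-84178945 from the start of miR-181d-5p to the end of miR-181c-5p, minus strand), and miR-181a-5p is cut from hairpins on chromosomes 1 and 2.
miR-181d-5p: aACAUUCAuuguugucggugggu
miR-181c-5p: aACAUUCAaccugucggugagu
miR-181a-5p: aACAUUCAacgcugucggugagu

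The arms of the miR-290-295 hairpins (chromosome 7, plus strand, with miR-291a-5p at chr7:3218932-3218953 and miR-295-3p at chr7:3220815-3220837) are shown because the 5p and 3p arms behaved differently. The 3p arms of miR-291a, miR-294 and miR-295 share the seed of miR-302b-3p (chr3:127545275-127545297, plus strand), whereas the 5p arms have other seeds.
miR-291a-5p: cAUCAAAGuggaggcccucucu
miR-294-5p: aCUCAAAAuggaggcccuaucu
miR-295-5p: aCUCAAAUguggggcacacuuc
miR-291a-3p: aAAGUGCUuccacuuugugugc
miR-294-3p: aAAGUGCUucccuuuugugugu
miR-295-3p: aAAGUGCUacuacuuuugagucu
miR-302b-3p: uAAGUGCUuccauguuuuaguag

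The last group had higher levels in the SB library. The let-7 members share the seed GAGGUAG with miR-98, which lies beside let-7f-2 in an intron of Huwe1 (miR-98-5p at chrX:151913229-151913250, plus strand). miR-199a-3p comes from an exon of Dnm3os on chromosome 1 (chr1:162217883-162217904, plus strand) and from a second hairpin on chromosome 9. miR-99a (chr16:77598940-77598961, plus strand) lies in an intron of Mir99ahg, the noncoding host gene that also holds let-7c-1 and miR-125b-2. miR-29a-3p lies at chr6:31062673-31062694 (minus strand) and miR-206-3p at chr1:20679055-20679076 (plus strand).
let-7f-5p: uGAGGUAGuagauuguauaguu
let-7c-5p: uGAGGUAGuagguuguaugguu
let-7b-5p: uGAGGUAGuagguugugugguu
let-7i-5p: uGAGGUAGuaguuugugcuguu
miR-98-5p: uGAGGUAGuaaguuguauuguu
miR-199a-3p: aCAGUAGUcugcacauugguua
miR-125b-5p: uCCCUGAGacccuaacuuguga
miR-99a-5p: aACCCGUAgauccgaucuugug
miR-29a-3p: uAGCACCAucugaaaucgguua
miR-206-3p: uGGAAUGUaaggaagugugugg

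Levels are in rpm as deposited, which by the methods are reads relative to the total of the library. The scaling corresponds to 10955686 reads in the Control library and 11354692 reads in the SB library, so that 1 read is worth 0.0913 and 0.0881 rpm. These totals, found from the steps between the values, are below the library totals that the study states, and why they differ was not tested. The listed miRNAs held 3102292 reads in the Control library and 2739358 in the SB library, 28.3% and 24.1% of the scaling totals, and the median listed miRNA had 98 and 87 reads. A miRNA was called lower or higher by the criteria of the study, that is, where its rpm in SB was at least 25% above or 20% below that in Control and the Z-score of its read proportions lay outside the central 95% of a normal distribution. With 1 library per condition there is no replicate check. The Z-score compares the reads of these 2 libraries and not the conditions, so no p-value is given, and the 95% exact intervals below cover counting error only, since PCR copies of 1 molecule are counted as separate reads.

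Across all 693 miRNAs, 209 were called lower in the SB library (30.2%) and 106 higher (15.3%), and 378 were called neither. At least a 2-fold difference was seen in 67 lower (9.67%) and 49 higher miRNAs (7.07%), and at least a 1.5-fold difference in 162 lower (23.4%) and 77 higher miRNAs (11.1%). The median log2 ratio of SB over Control was -0.19. This balance depended on the scaling. Lower calls made up 66.3% of all calls with the deposited rpm, and there were 144 lower against 165 higher calls (46.6% lower) with the reads on listed miRNAs as the scaling total, which raised every log2 ratio by 0.23 and moved the median to 0.04. Scaling to miR-26a-5p, the control miRNA of the study, went the other way, with 297 lower and 65 higher calls (82.0% lower) and a median of -0.44. Under all 6 scalings tried, 144 miRNAs kept the lower call and 65 the higher call. Whether the miRNA content as a whole was lower in the SB library is therefore not settled by these values. The calls below are those with the deposited rpm, and a ratio can be read against the median of -0.19.

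The share of called miRNAs rose with the depth behind them, which the 5 tiers of mean level show. Among the 121 miRNAs under 1 rpm, 5 were lower and 2 higher at a median of 6 reads in the SB library, whereas among the 51 miRNAs at 1000 rpm or more 23 were lower (45.1%) and 11 higher (21.6%). The middle tiers from 10 to 100 rpm and from 100 to 1000 rpm had 42.4% and 44.2% lower. The interval of the log2 ratio had a median width of 3.66 in the lowest tier and 0.06 in the highest. A difference in a miRNA with a few reads was not detectable at this depth unless it was large.

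**Figure D1:**
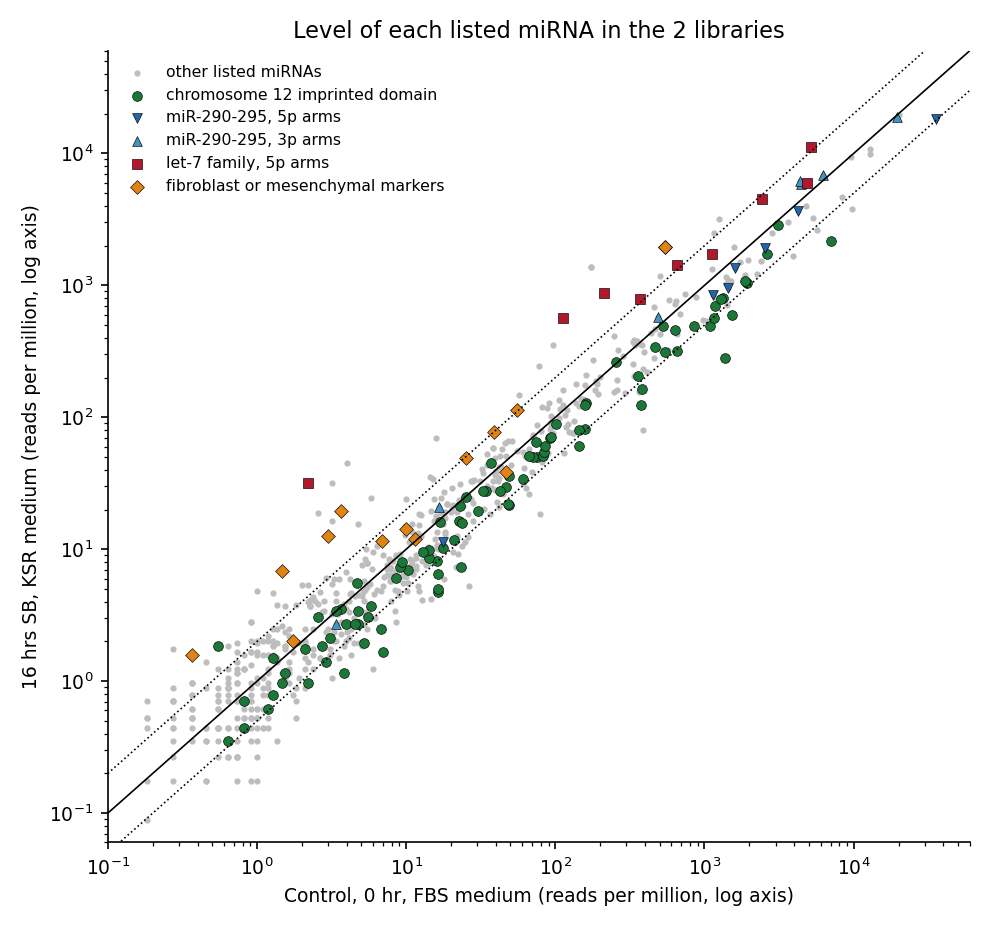
Level of each of the 693 listed miRNAs in the Control library (x axis) and the SB library (y axis), both in rpm on log axes, 1 point per miRNA. The solid line marks equal levels and the dotted lines differences of 2-fold. The let-7 5p arms (red squares) and most fibroblast or mesenchymal markers (orange diamonds) lie above the line, and most miRNAs of the chromosome 12 domain (green circles) below it.

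The most abundant miRNAs were largely the same in both libraries, with 7 miRNAs among the 10 most abundant of each. The 10 most abundant held 50.2% of the listed rpm in Control and 48.4% in SB. These ranks are of reads, which depend on how well each miRNA was captured as well as on its amount. miR-290-5p had the highest level in Control, at 35638 rpm, and the one after miR-3473b and miR-293-3p in SB, at 18094 rpm, a log2 ratio of -0.98 (95% interval -0.99 to -0.97). miR-3473b at 20270.0 and 19386 rpm, miR-293-3p at 19525 and 18792 rpm and miR-140-3p at 9537 and 9405 rpm were called neither. miR-103-3p, at 12936 and 10879 rpm, was also called neither, whereas miR-25-3p was called lower at 12856 and 9859 rpm. miR-181d-5p, miR-320-3p and miR-543-3p were in the top 10 of Control only. let-7f-5p, miR-292-3p and let-7c-5p were in the top 10 of SB only, with let-7f-5p at 11217 rpm next after miR-290-5p.

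A few miRNAs carried much of the shift in reads. Summed over the 419 miRNAs with lower rpm in SB, 71341 rpm were lost, of which miR-290-5p gave 24.6%, miR-181d-5p 8.42% and miR-543-3p 6.85%. The 274 miRNAs with higher rpm gained 29427 rpm, of which let-7f-5p alone gave 20.5%. The net difference was -41914 rpm on listed miRNAs.

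The lowest and highest ratios were taken among the 152 miRNAs with at least 100 rpm in 1 of the 2 libraries. Of these 152, 66 were lower (43.4%) and 32 higher (21.1%), with a median log2 ratio of -0.21. The 15 lowest ratios ran from -2.29 to -1.04, and 9 of these 15 miRNAs come from the chromosome 12 imprinted domain. That domain holds 94 of all 693 listed miRNAs. The 15 highest ran from 1.10 to 2.99, and 5 of them were let-7 members, a family with 9 of the listed 5p arms. All 30 had at least 606 reads in each library and kept their call under all 6 scalings. The next miRNAs beyond these were miR-25-5p at -1.00 and miR-143-3p at 1.04.

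miR-485-3p had the lowest ratio, with 1380.4 rpm in Control and 282 rpm in SB, 4.89-fold lower (log2 -2.29, interval -2.35 to -2.24). miR-92a-2-5p was almost as low, at 386 and 80.6 rpm (log2 -2.26, interval -2.37 to -2.16). miR-543-3p went from 7038 to 2152 rpm (log2 -1.71) and miR-494-3p from 375 to 124 rpm (log2 -1.59). Both are members of the chromosome 12 cluster, like miR-485. miR-181d-5p, the abundant member of its family here, went from 9770.5 to 3763 rpm (log2 -1.38). In the Dox library miR-485-3p was at 1504 rpm, miR-543-3p at 5137 rpm and miR-181d-5p at 18552 rpm.

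Outside the chromosome 12 domain, the low end also held miR-672-5p, at 3935 and 1676 rpm (log2 -1.23), and miR-210-3p, the miRNA best known for its induction in hypoxia, at 364 and 157 rpm (log2 -1.22, interval -1.30 to -1.13). miR-423-5p was at 5683 and 2647 rpm (log2 -1.10), but the study's qPCR of the same RNA did not show it lower after SB. Except for miR-320-3p, the other miRNAs that the study assayed by qPCR were lower after SB there too, by differing amounts. miR-877-5p, which is excised by splicing and does not need Drosha, was at 114 and 53.4 rpm (log2 -1.10).

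At the other end, miR-3096-5p and miR-3096b-5p had nearly equal values, 173 and 174 rpm in Control and 1382 and 1386 rpm in SB (log2 2.99 for both). By the methods, a read that matched several miRNAs went to the one closest in length, or to each where several were equally close, so these 2 miRNAs may share reads. let-7i-5p went from 113 to 561 rpm (4.96-fold, log2 2.31, interval 2.22 to 2.40) and let-7b-5p from 211 to 879.6 rpm (log2 2.06, interval 2.00 to 2.13). miR-125b-5p was at 97.0 and 352 rpm (log2 1.86) and miR-31-5p at 78.2 and 246 rpm (log2 1.65). miR-21-5p, one of the most widely expressed miRNAs of differentiated and cultured cells, was at 1159 and 2486 rpm (log2 1.10). In the Dox library let-7b-5p was at 69.2 rpm, let-7i-5p at 82.5 rpm, miR-125b-5p at 46.5 rpm and miR-3096-5p at 84.6 rpm, all below their levels in both other libraries.

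**Figure D2:**
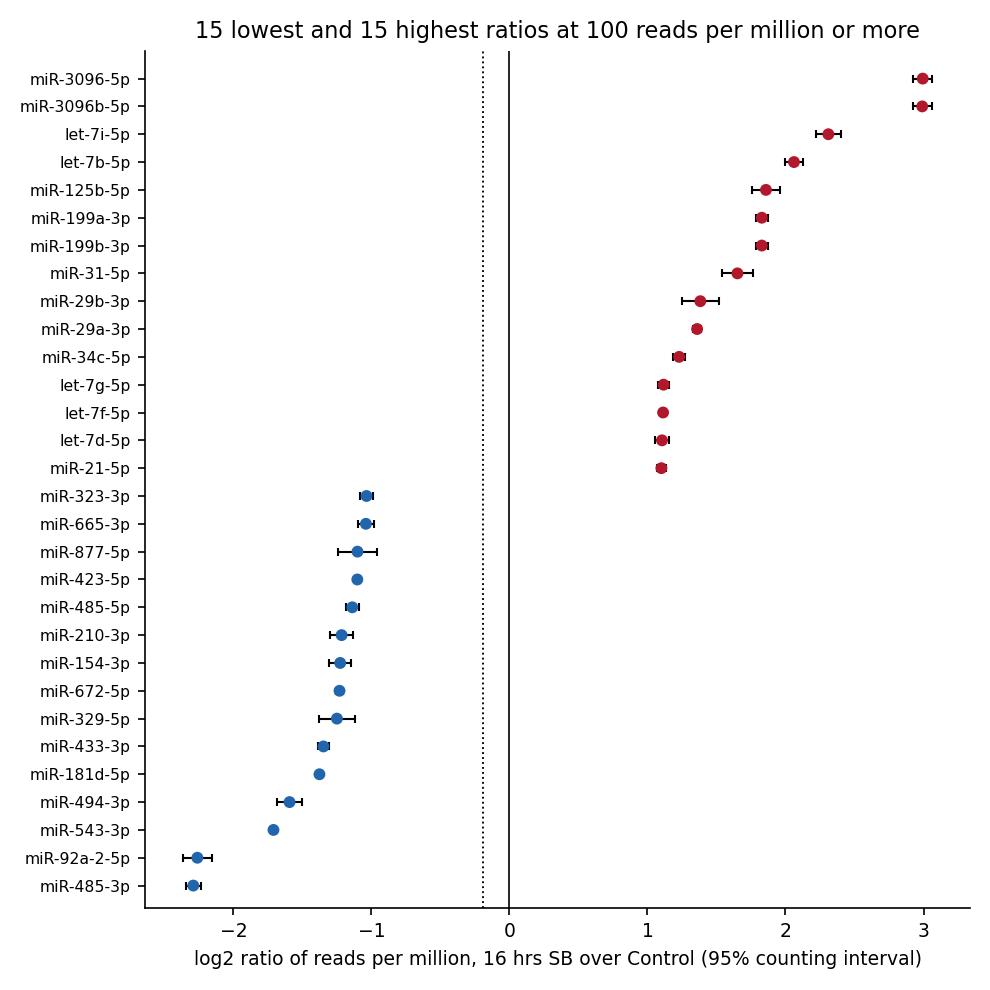
The 15 lowest and the 15 highest log2 ratios of rpm, SB over Control, among the 152 miRNAs with at least 100 rpm in 1 library (blue called lower, red called higher, bars the 95% counting interval, dotted line the median of all 693 miRNAs). The ratio of miR-485-3p is -2.29 and that of miR-3096-5p 2.99, and no interval reaches 0.

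The chromosome 12 domain (Dlk1-Dio3) is an imprinted region whose noncoding RNAs and miRNAs are expressed from the maternal chromosome, and it holds one of the largest miRNA groups of the mouse genome. Of its 94 listed miRNAs, 63 were lower in SB (67.0%, against 30.2% of all listed miRNAs) and 1 was higher. Their median log2 ratio was -0.63, and their summed level went from 33006 to 17918 rpm, 11.7% of the listed reads in Control and 7.43% in SB. The other 599 listed miRNAs had 146 lower (24.4%), 105 higher (17.5%) and a median of -0.07. The number of domain miRNAs called lower ranged from 43 to 76 over the 6 scalings, and the median stayed below 0 in each.

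By position, the largest group of the domain, from miR-341 to miR-3072, had 51 of 72 lower (70.8%, against 30.2% of all listed miRNAs), with a median of -0.67 and a summed level of 25459 rpm in Control against 12711 rpm in SB. The group on the side of the noncoding RNA gene Meg3 (miR-770, miR-673, miR-493, miR-337, miR-540 and miR-665) had 7 of 12 lower (58.3%), with a median of -0.58. The hairpins antisense to Rtl1, whose miRNAs pair perfectly with the Rtl1 mRNA, had 5 of 10 lower (50%) with a median of -0.38. Over the 6 scalings, the number lower ranged from 33 to 58 in the largest group, from 6 to 9 in the Meg3 group and from 4 to 9 in the Rtl1 group. Among the Rtl1 miRNAs miR-433-3p was lowest, at 1525 and 599 rpm (log2 -1.35), while miR-127-3p, at -0.14, and miR-431-5p, at -0.04, were called neither.

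The 88 domain miRNAs whose hairpins the RefSeq table places by name span 184 kb of chromosome 12 (chr12:109563692-109747960). Lower calls occurred in each stretch of the span, against 30.2% of all listed miRNAs, with 14 of 25 miRNAs lower within 50 kb of the first hairpin (median -0.57), 11 of 15 from 50 to 150 kb (median -0.74) and 36 of 48 beyond 150 kb (median -0.67). Neighbouring hairpins nonetheless differed. miR-379-5p at -0.12 and miR-411-5p at 0.05 were called neither, while miR-323-3p, which follows them within a few kb, was at -1.04. miR-667-3p at -1.66, miR-494-5p at -1.74, miR-758-5p at -1.77 and miR-3072-3p at -2.07 were among the lowest. They rested on few reads in SB, in this order 84, 13, 54 and 19, so their counting intervals were wide, as with -2.77 to -0.82 for miR-494-5p. The single higher call was miR-668-5p, which rested on 6 reads in Control and 21 in SB (log2 1.76), while miR-668-3p from the same hairpin was lower, at -0.46.

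**Figure D3:**
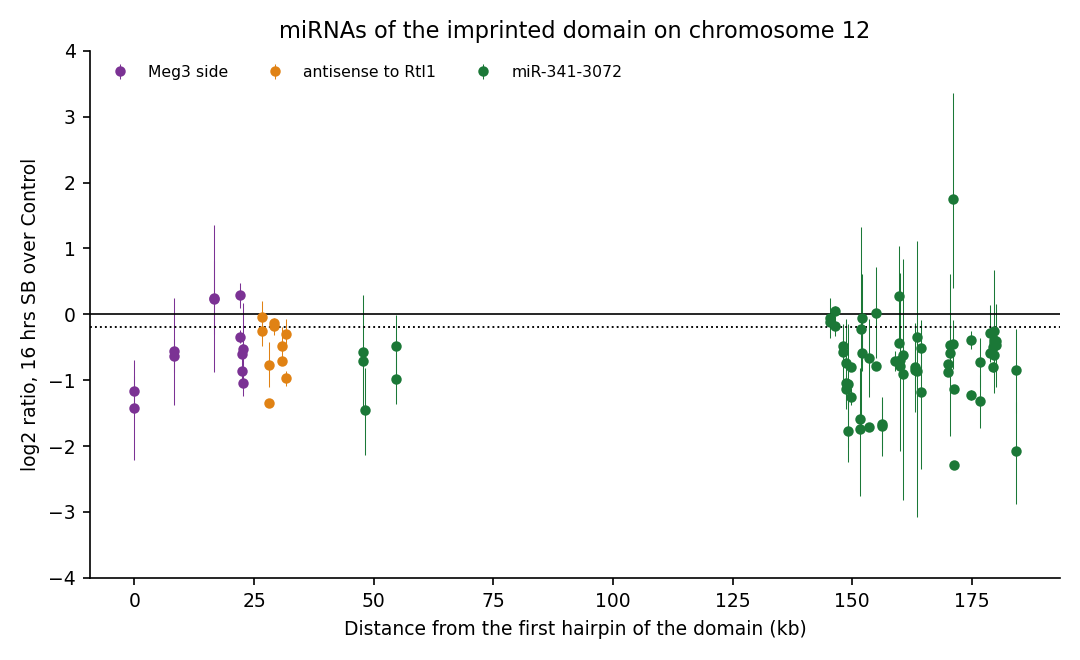
Log2 ratio of rpm, SB over Control, of the 88 placed miRNAs of the chromosome 12 domain against the distance of their hairpin from the first hairpin in kb (bars the 95% counting interval, dotted line the median of all 693 listed miRNAs). Most points lie below the line at 0 over the whole 184 kb, and the 1 miRNA called higher, miR-668-5p, has a wide interval.

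The miR-290-295 cluster held 28.9% of the listed reads in the Control library and 27.0% in the SB library. Its 5p and 3p arms did not move together. Of the 7 listed 5p arms, 5 were lower (71.4%, against 30.2% of all listed miRNAs) and none higher, with a median log2 ratio of -0.44 and a summed level of 46646 rpm in Control and 26834 rpm in SB. Of the 7 listed 3p arms, none was lower and 3 were higher (42.9%, against 15.3% of all), with a median of 0.26 and sums of 35139.7 and 38285 rpm. As a share of the listed reads, the 5p arms went from 16.5% to 11.1% and the 3p arms from 12.4% to 15.9%. Over the 6 scalings, 3 to 7 of the 5p arms were lower and none higher, and 0 to 5 of the 3p arms were higher and none lower.

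Among the 5p arms, miR-290-5p was the lowest, as given above, and the other members lay below 0 as well. By the study's qPCR of the same RNA, miR-290-5p was also lower after SB, but by less. miR-295-5p was at 1435 and 947 rpm (log2 -0.60), miR-294-5p at 1141 and 842 rpm (log2 -0.44) and miR-291a-5p at 2558 and 1934 rpm (log2 -0.40), all called lower. miR-292-5p at -0.24 and miR-293-5p at -0.22, both close to the median of all miRNAs, were called neither. Among the 3p arms, miR-292-3p was highest, at 4387 and 6146 rpm (log2 0.49, interval 0.47 to 0.50), and miR-294-3p was at 4449 and 5839 rpm (log2 0.39). miR-290-3p was also called higher, from 16.7 to 21.0 rpm (log2 0.33, interval 0.04 to 0.61). The remaining 3p arms were called neither, miR-291a-3p at 0.26, miR-295-3p at 0.14, miR-293-3p at -0.06 and miR-291b-3p at -0.31. miR-293-3p, at 19525 and 18792 rpm, was the most abundant of the 3p arms.

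The difference between the arms of 1 hairpin is the same under every scaling by 1 factor per library, which leaves out quantile normalization. In every one of the 7 miR-290-295 hairpins the ratio of the 5p arm lay below that of the 3p arm. The difference was -1.31 for miR-290 (interval -1.58 to -1.03), -0.83 for miR-294, -0.74 for miR-295, -0.73 for miR-292 and -0.66 for miR-291a, and smaller for miR-293 at -0.17. Only for miR-291b, with 37 and 31 reads on its 3p arm, did the interval reach 0. For comparison, the 5p arm had the lower ratio in 121 of all 239 hairpins with both arms listed.

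The miR-302-367 cluster, the counterpart of miR-290-295 in later pluripotent cells, was listed at low levels and had the same order of arms in all 4 hairpins with both arms listed. miR-302a-5p was lower, at 41.8 and 20.9 rpm (log2 -1.00, interval -1.23 to -0.77), while miR-302a-3p was called neither at -0.32. miR-302b-3p was higher, at 12.5 and 18.1 rpm (log2 0.53, interval 0.21 to 0.85), while miR-302b-5p, with 11 and 4 reads, was called neither. miR-302c-3p was higher on 26 and 49 reads (log2 0.86).

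**Figure D4:**
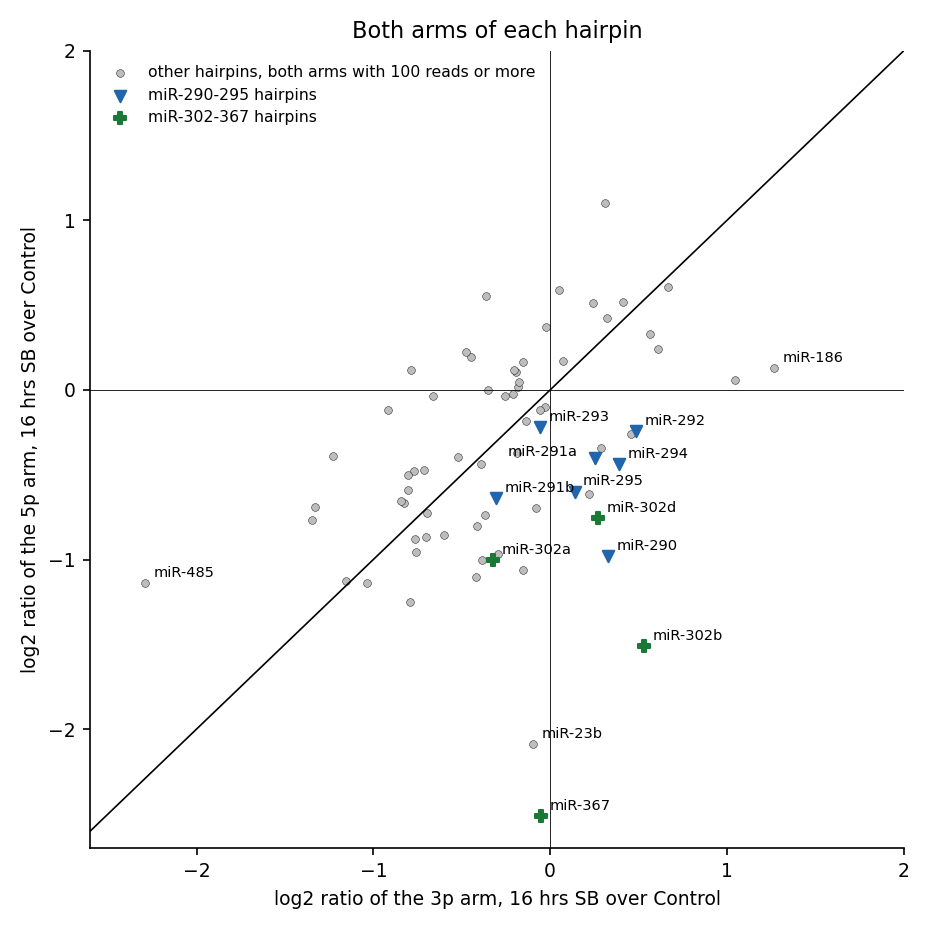
Log2 ratio of rpm, SB over Control, of the 3p arm (x axis) and the 5p arm (y axis) of single hairpins, with the diagonal marking equal ratios. Grey points are hairpins with at least 100 reads on both arms in both libraries, and the miR-290-295 (triangles) and miR-302-367 (crosses) hairpins are shown at any depth. The 11 hairpins of these 2 clusters all lie below the diagonal.

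Across the 67 hairpins with at least 100 reads on both arms in both libraries, few had arms called in opposite directions. Both arms were lower in 24 hairpins and both higher in 3, 25 had 1 arm called, 13 had none, and opposite calls were seen in 2, miR-290 and miR-294. The median size of the difference between arms was 0.35, and the counting interval excluded 0 in 42 hairpins. In 4 hairpins the difference was at least 1. In miR-23b the 5p arm went from 78.6 to 18.5 rpm (log2 -2.09) while the 3p arm stayed at 106 and 99.2 rpm, a difference of -1.99 (interval -2.24 to -1.74). In miR-186 the 3p arm was higher, at 10.0 and 24.1 rpm, and the 5p arm was called neither. In miR-485 both arms were lower but the 3p arm more so, and the share of the 5p arm in the reads of the hairpin went from 44.0% to 63.6%. The other hairpins among the 8 with the largest differences were miR-143, miR-34a, miR-27b and miR-455, with differences between 0.90 and 0.99 in size.

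The let-7 family represses genes of the cell cycle and of the early embryo and accumulates as cells differentiate. Of its 9 listed 5p arms, miR-98 included, 8 were higher in SB and none lower (88.9% higher, against 15.3% of all listed miRNAs), with a median log2 ratio of 1.11. Their summed level went from 14916 to 27181 rpm, 1.82-fold, and from 5.27% to 11.3% of the listed reads. In the Dox library their sum was 14572 rpm. The number called higher was 8 or 9 under each of the 6 scalings.

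The members differed in size. let-7c-5p, the second most abundant in Control at 4847 rpm, was at 6012 rpm in SB and was called neither (log2 0.31). let-7e-5p was at 1116 and 1734 rpm (log2 0.64) and let-7a-5p at 2419 and 4534 rpm (log2 0.91). let-7f-5p, let-7g-5p and let-7d-5p had nearly the same ratio, at 1.11, 1.12 and 1.11, although their levels in SB were 11217, 1419 and 792 rpm. let-7b-5p and let-7i-5p, which were low in Control, had ratios above 2 on the log2 scale. miR-98-5p had the highest ratio of the family, on 24 reads in Control and 362 in SB (2.19 and 31.9 rpm, log2 3.86, interval 3.27 to 4.52). The mature let-7 sequences are so alike that a short read can match several of them, and how the authors' counting split such reads may affect the single members more than the sum. The 4 listed 3p arms had at most 23 reads in a library and none was called.

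Other families moved with the let-7 direction. In the list of miR-99, miR-100 and miR-125, 5 of 8 were higher (62.5%, against 15.3% of all listed miRNAs) and none lower. miR-99a-5p was at 3.20 and 31.9 rpm (log2 3.32, interval 2.82 to 3.86) and miR-100-5p at 2.56 and 18.9 rpm (log2 2.89), whereas miR-99b-5p was at 180 and 271 rpm (log2 0.59) and miR-125a-5p was called neither at -0.16. miR-99a and miR-100 lie in host genes together with miR-125b, and miR-99b lies beside let-7e and miR-125a.

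The miR-29 family, known for targeting mRNAs of collagens and of DNA methyltransferases, had 3 of 5 higher (60.0%, against 15.3% of all) and none lower, with 2 to 4 higher over the 6 scalings. miR-29a-3p was at 1251 and 3212 rpm (log2 1.36, interval 1.33 to 1.39), miR-29b-3p at 56.9 and 148 rpm (log2 1.38) and miR-29c-3p at 43.6 and 57.9 rpm (log2 0.41). Of miR-221 and miR-222, which share a seed, miR-221-3p was higher at 1085 and 1720.1 rpm (log2 0.66), and miR-222-3p was called neither at 0.11.

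miRNAs used as markers of fibroblasts and other mesenchymal cells were among the higher ones. Of the 14 listed, 11 were higher (78.6%, against 15.3% of all listed miRNAs) and none lower, with a median log2 ratio of 1.02. With miRNAs of identical values counted once, 10 of 13 were higher, and their summed level was 752 rpm in Control, 2303 rpm in SB and 494 rpm in Dox. None was at 0 in any library. miR-199a-3p and miR-199b-3p have the same values, 547 rpm in Control, 1943 rpm in SB and 337 rpm in Dox (log2 1.83 for SB over Control), and made up most of the sum. The 2 arms of miR-214, which is encoded beside miR-199a-2 in Dnm3os, were at 1.46 and 6.87 rpm for the 3p arm (log2 2.23) and 0.37 and 1.59 rpm for the 5p arm (log2 2.12).

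Of the smooth muscle and mesenchymal pair, miR-143-3p was at 55.5 and 114 rpm (log2 1.04) and miR-145-5p at 25.1 and 49.1 rpm (log2 0.97). miR-10a-5p, encoded in a Hox cluster, was at 38.7 and 77.5 rpm (log2 1.00). Of the miR-196 members, also from Hox clusters, miR-196b-5p was higher at 9.95 and 14.3 rpm (log2 0.52), while miR-196a-5p was called neither at -0.29. The number of these markers called higher was between 10 and 12 under the 6 scalings. In bulk RNA, more cells of a type and more of an RNA per cell cannot be told apart. The fibroblast or mesenchymal markers moved in the same direction as the let-7, miR-29, miR-99, miR-100 and miR-125b members, and their part in those results was not tested.

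Markers of other tissues were low. miR-206-3p, specific to skeletal muscle, was at 4.02 and 45.4 rpm on 44 and 515 reads (log2 3.50, interval 3.05 to 3.98), while miR-1a-3p at 0.31 and miR-133a-3p, with 4 and 6 reads, were called neither. The liver miRNA miR-122-5p was at 5.84 and 24.4 rpm (log2 2.06), and at 19.5 rpm in Dox. Of the 4 blood cell markers, miR-150-5p was higher (25.0%, against 15.3% of all listed miRNAs), at 22.9 and 31.4 rpm (log2 0.46). The other 3 were called neither. With scaling to miR-26a-5p, none of the 4 was higher and 1 was lower.

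Markers of epithelial cells lay on the other side. Of the 12 listed, 7 were lower (58.3%, against 30.2% of all listed miRNAs) and none higher, with a median log2 ratio of -0.67, and 5 to 8 were lower under the 6 scalings. The miR-200 family, which keeps epithelial cells from mesenchymal change by repressing Zeb1 and Zeb2, gave most of this. miR-200a-3p was at 390 and 232 rpm (log2 -0.75, interval -0.82 to -0.68), miR-200c-3p at 132 and 75.9 rpm (log2 -0.79), miR-200b-3p at 87.8 and 61.8 rpm (log2 -0.51) and miR-429-3p at 62.1 and 41.4 rpm (log2 -0.58). In Dox the same 4 were at 709, 156, 174 and 66.2 rpm. Of the 7 neural markers 4 were lower (57.1%, against the same 30.2%) and none higher, with a median of -0.49, but over the 6 scalings 2 to 6 were lower and 0 or 1 higher. Among them miR-124-3p, at 1736 and 1517 rpm, was called neither, and miR-9-5p was lower at 39.4 and 28.0 rpm (log2 -0.49).

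**Figure D5:**
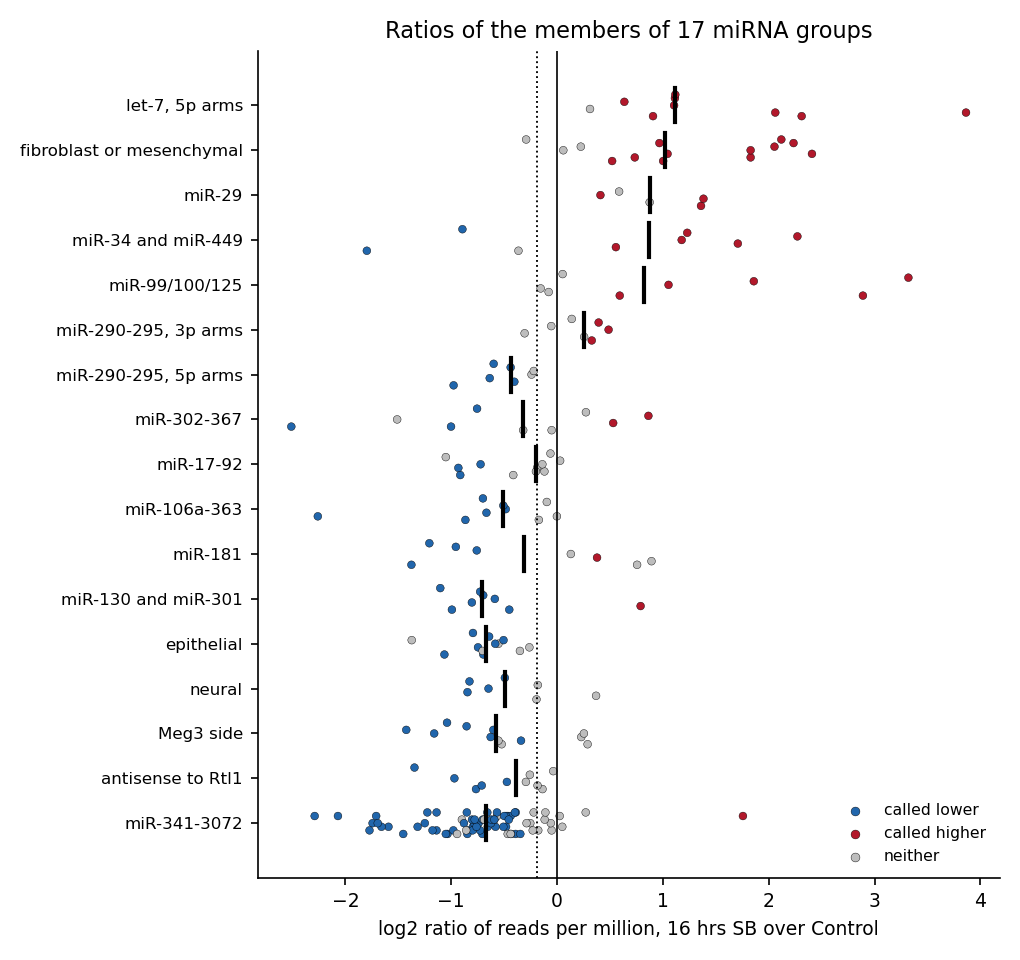
Log2 ratio of rpm, SB over Control, of every listed member of 17 miRNA groups, 1 point per miRNA (blue called lower, red called higher, grey neither), with a black bar at the median of each group. The solid line marks equal levels and the dotted line the median of all 693 miRNAs, -0.19. The medians run from -0.71 for miR-130 and miR-301 to 1.11 for the let-7 5p arms, and miR-181 and miR-34 with miR-449 hold members on both sides.

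miRNAs with 1 seed did not always go 1 way. In the miR-181 family, miR-181d-5p and miR-181c-5p were lower, the latter at 1042 and 537 rpm (log2 -0.96), and their 3p arms were lower too, at -1.21 and -0.76. miR-181a-5p, with the same seed, was higher at 139 and 180.1 rpm (log2 0.38, interval 0.28 to 0.47), and miR-181b-5p was called neither at 0.13. Of the 8 listed arms of the family, 4 were lower (50%, against 30.2% of all listed miRNAs), a number that was 4 under each of the 6 scalings, and the higher call of miR-181a-5p was lost with scaling to miR-26a-5p. The split followed the locus, with the chromosome 8 hairpins lower and those of chromosomes 1 and 2 not lower.

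The miR-34 and miR-449 miRNAs share a seed and differ in locus in the same way. The miR-34 genes are targets of p53, and miR-449 is best known from multiciliated cells. miR-34c-5p was higher at 503 and 1179 rpm (log2 1.23, interval 1.18 to 1.27), miR-34b-5p at 15.2 and 34.3 rpm (log2 1.18) and miR-34a-5p at 81.0 and 119 rpm (log2 0.56). miR-449a-5p was lower at 10.3 and 5.55 rpm (log2 -0.90) and miR-449c-5p at 14.7 and 4.23 rpm (log2 -1.80). Of the 8 listed arms of these genes, 5 were higher (62.5%, against 15.3% of all listed miRNAs) and 2 lower (25.0%, against 30.2%).

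The related clusters miR-17-92, miR-106a-363 and miR-106b-25 promote proliferation. Of the 6 miRNAs with a RefSeq sequence and the seed AAAGUGC, such as miR-17-5p at -0.12 and miR-106a-5p at 0.00, 5 were called neither. None was lower, against 30.2% of all listed miRNAs. miR-93-5p was higher at 582 and 781 rpm (log2 0.42), which is 16.7% of the 6 and close to the 15.3% of all. Its higher call was lost with scaling to miR-26a-5p. Of the 6 miRNAs with the seed AUUGCAC, which include miR-32-5p, miR-92b-3p and miR-367-3p from other loci, 4 were lower (66.7%, against 30.2% of all) and none higher, and without miR-367-3p the number lower ranged from 2 to 5 over the 6 scalings. Among them were miR-92a-3p at 5360.1 and 3248 rpm (log2 -0.72), miR-363-3p at 458 and 282 rpm (log2 -0.70) and miR-25-3p at -0.38. The opposite arms of the same hairpins were lower still, with miR-92a-1-5p at -0.93, miR-25-5p at -1.00, miR-363-5p at -0.87 and miR-92a-2-5p at -2.26. By cluster, 6 of 9 were lower in miR-106a-363 (66.7%, against 30.2% of all listed miRNAs), whereas 3 of 11 in miR-17-92 (27.3%) and 2 of 6 in miR-106b-25 (33.3%) were close to the share of all miRNAs. Over the 6 scalings, the members called lower ranged from 4 to 7 in miR-106a-363, from 3 to 7 in miR-17-92 and from 1 to 3 in miR-106b-25.

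In the family of miR-130 and miR-301, 7 of 8 listed arms were lower (87.5%, against 30.2% of all listed miRNAs), with a median log2 ratio of -0.71. miR-130a-3p was at 1402 and 1025 rpm (log2 -0.45), miR-130b-3p at 570.02 and 326 rpm (log2 -0.81) and miR-301b-3p at 20.6 and 9.60 rpm (log2 -1.10). The exception was miR-130a-5p, higher on 43 and 77 reads (log2 0.79). miR-708, whose host gene is Odz4 (Tenm4), was lower on both arms, with miR-708-5p at 258 and 160.02 rpm (log2 -0.69). miR-7a-5p was lower at 1186 and 802 rpm (log2 -0.56).

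Among the listed miRNAs that are made without Drosha or by other routes (miR-320, miR-484, miR-877, miR-702, miR-1224 and miR-3102), 5 of 11 were lower (45.5%, against 30.2% of all) and 1 higher, with a median of -0.64 and 4 to 6 lower over the 6 scalings. miR-320-3p was at 8300 and 4644 rpm (log2 -0.84, interval -0.85 to -0.82) and at 17683 rpm in Dox, and miR-877-5p was at 305 rpm in Dox. The study's qPCR of the same RNA did not show miR-320-3p lower after SB. miR-484 was called neither at -0.30, and miR-1224-5p was higher at 17.8 and 26.9 rpm (log2 0.60).

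The list of miR-26 and miR-101 had no call among 7 members with the deposited rpm, against 30.2% lower and 15.3% higher of all listed miRNAs. It had 2 or 3 higher calls under 4 of the other scalings and 1 lower call with scaling to miR-26a-5p. miR-26a-5p, the control miRNA of the study, was at 647 rpm in Control and 766 rpm in SB (log2 0.24, interval 0.20 to 0.29). None of the 5 miR-148 and miR-152 members was called with the deposited rpm, against the same shares of all, and 2 were lower with scaling to miR-26a-5p. In the miR-30 family 2 of 11 were lower and 2 higher (18.2% each, against 30.2% lower and 15.3% higher of all listed miRNAs), with 1 to 4 lower and 0 to 3 higher over the 6 scalings.

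In the list of miR-15, miR-16, miR-195 and miR-497, 2 of 11 were lower (18.2%) and 3 higher (27.3%), against 30.2% and 15.3% of all miRNAs, and over the 6 scalings 2 to 6 were lower and 1 to 3 higher. In this list miR-497-5p was lower at 69.6 and 38.3 rpm (log2 -0.86) and miR-15b-5p higher at 88.2 and 118 rpm (log2 0.43). The repeat-rich Sfmbt2 group (miR-297, miR-466, miR-467 and miR-669) had 3 of 61 lower (4.92%, against 30.2% of all) and 12 higher (19.7%, close to the 15.3% of all) with a median of 0.42, and over the 6 scalings 5 to 23 were higher and 1 to 5 lower. Its most abundant member, miR-669c-5p, was lower at 1433 and 1091 rpm (log2 -0.39). Many members of this group are near copies, so their reads cannot be assigned with certainty. In the X-linked testis-type cluster 8 of 24 were lower (33.3%, against 30.2% of all listed miRNAs) and none higher, with 6 to 10 lower and 0 or 1 higher over the 6 scalings, at a median of -0.47 and a summed level of 99.6 and 66.2 rpm.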

How the data were processed

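Short RNA was sequenced from 3 libraries, 1 per condition, and 2 were compared. The deposited files hold RPM values, in which the authors expressed the reads of a miRNA per 1000000 reads of the library. Per the methods, adaptors were trimmed by the authors, who kept reads longer than 16 bases, aligned them without mismatches to the mature and then the hairpin sequences of miRBase (release 18) with Bowtie 0.12.7, pooled 2 runs and listed a miRNA from a total of 10 reads in the 3 libraries. Reads that matched several mature miRNAs went to the one closest in length, or to each at a tie, and those that matched several hairpins to each, so the counting affects near copies, and 37 miRNAs share all values with another.

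Every rpm value was a whole multiple of the value of 1 read, within 0.01 read, and read numbers were taken from it. Ratios had no pseudocount. Z-scores used the read proportions, with pooled error, and intervals were 95% Clopper-Pearson intervals of the read ratio. The calculations, checked on simulated libraries, used Python 3.11.15, numpy 2.4.6, pandas 2.3.3 and scipy 1.17.1.

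The miRNA lists and the rule for named miRNAs were chosen with earlier results of these data known. The rule took the 15 lowest and 15 highest ratios at 100 rpm or more in 1 library, the 10 most abundant miRNAs of each library, list members, the 8 hairpins with the largest arm difference, and miR-26a-5p. RefSeq held mature sequences for 516 of the 693 names (74.5%), so a check of base composition, length and first base was void. Host genes came from the GENCODE annotation of GRCm38. The alternatives tried were 5 other scalings, other fold thresholds, a pseudocount, filters on reads and a rule on intervals.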

Additional observations from a re-analysis of the deposited data

How the results depend on the processing

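Of the counts over all miRNAs, the number called lower, 209, stayed within 1.5 times under each alternative except a fold threshold of 2, which left 67. The number called higher, 106, was 165 with scaling to the reads on listed miRNAs, 161 with TMM, 65 with scaling to miR-26a-5p, 49 at a fold threshold of 2 and 62 where the whole 95% interval had to lie outside the fold threshold. The median log2 ratio of -0.19 became 0.038 with the reads on listed miRNAs, 0 with the median of ratios, 0.013 with TMM, -0.056 with quantile normalization and -0.44 with miR-26a-5p. Hairpins whose arms differ by at least 1 were 4 at 100 reads per arm and 1 at 1000 reads. Among the values of single miRNAs and lists, 584 stayed within the counting interval of a miRNA, a log2 shift of 0.1 for the median of a list or 1.5 times for its counts, and 550 moved by more. No paired analysis was possible because each condition had 1 library, and for the same reason no library could be left out. The check of base composition was not run, because fewer than 80% of the names had a sequence. With few reads per miRNA below 1 rpm, moderate differences there were not detectable.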
